A study of Sus scrofa with 6 samples.

Results

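The 8 genes described here encode cell surface receptors of the prostanoids. They were read from a table of 35670 pig (Sus scrofa) genes counted in ampulla of the oviduct. They were taken by symbol: PTGER1, PTGER2, PTGER3 and PTGER4 for prostaglandin E2, PTGFR for prostaglandin F2 alpha, PTGIR for prostacyclin, PTGDR for prostaglandin D2 and TBXA2R for thromboxane. All 8 had a row. The tissue came from females, with 3 libraries labelled early luteal, the later stage, at which corpora lutea form, and 3 labelled post-ovulatory. No genotype, breed, age or treatment was named for either stage. Nothing in the labels says whether the replicates of a stage were separate animals, and p-values therefore measure only the variation among these libraries, part or all of which may be technical.

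Prostanoids are made from arachidonic acid by cyclooxygenases and act close to where they are released, through G protein-coupled receptors. In textbook accounts PTGER2, PTGER4, PTGIR and PTGDR raise cyclic AMP and relax smooth muscle, PTGER1, PTGFR and TBXA2R raise calcium and contract it, and PTGER3 mainly lowers cyclic AMP. In the mammalian oviduct prostaglandins E2 and F2 alpha are known for their part in muscle contraction, gamete and embryo transport and secretion. The comparison here asks whether transcripts of these receptors differed between the stages.

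The receptor genes fell into 2 sets by their counts. PTGER4 and PTGFR gathered 4788 and 3388 counts over the 6 libraries and PTGER2, PTGER3 and PTGDR between 110 and 450, and these 5 genes were tested. PTGER1, PTGIR and TBXA2R gathered 47, 26 and 59 counts and lay below the filter on low counts. None of the 5 tested genes passed an adjusted p of 0.05, and in all 8 the CPM of the stages overlapped (CPM is the count over the scaled library total, times 1e6). Over all 17920 genes tested the share called was 0%, the share with an unadjusted p under 0.05 was 7.11%, and the share whose stages did not overlap was 17.2%. At an unadjusted p under 0.05 edgeR counted 0 of the 5 and DESeq2 1, PTGER4. Over all genes tested the DESeq2 share at this cut was 9.76%. PTGER4 had the lowest p of the 5 in edgeR too. Levels are not ranked between genes here, since CPM is not corrected for transcript length.

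Library totals ran from 8342520 to 14785020 counts in early luteal and from 7370723 to 30954222 in post-ovulatory libraries. Early luteal replicate 2 stood apart on the first principal component (176, against -51.0 to 2.39 in the other 5 libraries). All 9 genes of a ciliated epithelium list, all 10 of a smooth muscle list and 8 of 9 of a secretory epithelium list had a row and were tested, so the labelled tissue carried the markers of its wall. Summed smooth muscle markers were 1116, 7136 and 10104 CPM in early luteal replicates 1, 2 and 3, against 3449, 6039 and 3079 CPM in the post-ovulatory replicates. Early luteal replicate 1 was thus the lowest and early luteal replicate 3 the highest of the 6. Summed fibroblast and stroma markers did not overlap between the stages. They were 685 to 1016 CPM in early luteal and 1157 to 2415 CPM in post-ovulatory libraries. The part of stromal content in the receptor levels was not tested. Fewer cells of a type and less RNA per cell cannot be told apart in whole tissue.

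**Figure D1:**
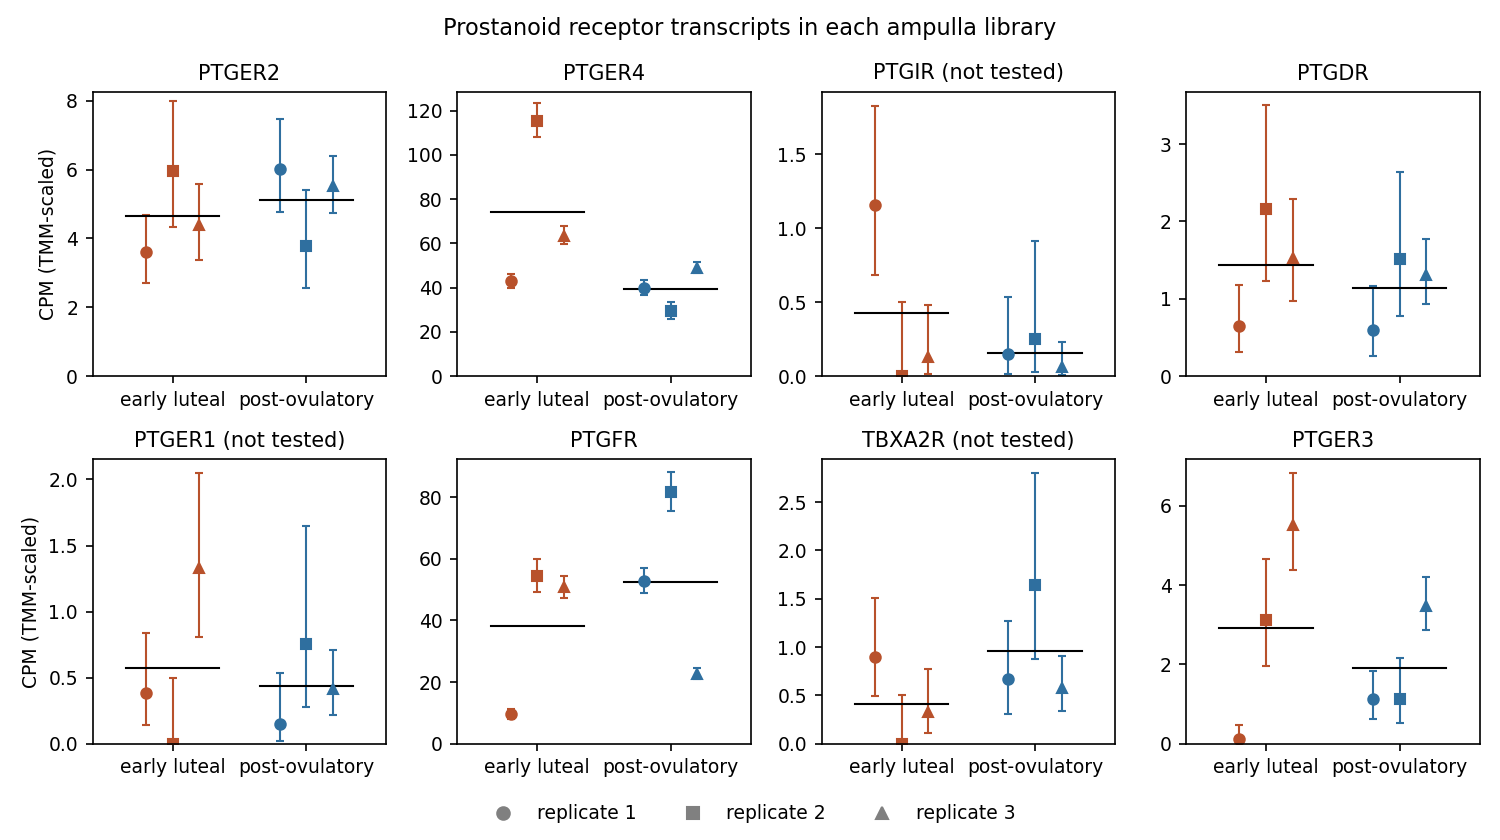
CPM of the 8 receptor genes (vertical axes, linear from 0) in early luteal and post-ovulatory libraries, with exact 95% Poisson intervals of each count as bars and the stage mean as a black line; marker shapes give the replicate number. PTGER4 in early luteal replicate 2 (116 CPM) lies above the other 5 libraries, and PTGFR in early luteal replicate 1 (9.64 CPM) below them.

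PTGER4, the EP4 receptor that couples to cyclic AMP, lies on chromosome 16 (25670832 to 25686556, Sscrofa11.1) in the RefSeq annotation and overlaps no other annotated gene. It stood at 42.9, 116 and 63.5 CPM in early luteal replicates 1, 2 and 3, against 40.0, 29.4 and 48.9 CPM in the post-ovulatory replicates. Early luteal replicate 2 was high, and early luteal replicate 1 lay below post-ovulatory replicate 3, so the stages overlapped. The means were 74.0 ± 37.4 CPM for early luteal and 39.4 ± 9.81 CPM for post-ovulatory tissue (SD, n = 3 each). The log2 fold change was 0.90 ± 0.40 (SE), a 1.87-fold higher level, with a 95% interval from -0.0030 to 1.81 (edgeR's quasi-likelihood test, unadjusted p = 0.0506, Benjamini-Hochberg adjusted p = 0.685). Counting error was small beside this spread: the 1535 counts of post-ovulatory replicate 3 give an interval of 46.5 to 51.5 CPM. The log2 fold change was 0.43 when early luteal replicate 2 was left out (edgeR, adjusted p = 0.682) and 1.20 when early luteal replicate 1 was (edgeR, adjusted p = 0.344).

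PTGER2, the EP2 receptor, also couples to cyclic AMP. Its levels were the most even of the tested receptors, at 3.60, 5.95 and 4.38 CPM in early luteal replicates 1, 2 and 3, against 6.02, 3.78 and 5.52 CPM in the post-ovulatory replicates. Both stages covered nearly the same range. The means were 4.64 ± 1.20 CPM for early luteal and 5.10 ± 1.17 CPM for post-ovulatory tissue (SD, n = 3 each). The log2 fold change was -0.15 ± 0.51 (SE), with a 95% interval from -1.30 to 1.01 (edgeR, adjusted p = 0.955), which spans 0.406-fold to 2.01-fold. Without early luteal replicate 1 the log2 fold change was 0.025. The SD of log2 CPM within stages was 0.35, at percentile 24.5 of all tested genes, whose median was 0.57.

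PTGDR, the DP1 receptor for prostaglandin D2, is a neighbour of PTGER2. In the RefSeq annotation of Sscrofa11.1 PTGDR spans 181953506 to 182006375 and PTGER2 181993961 to 182009959 on chromosome 1, an overlap of 12415 bases. This overlap is of whole RefSeq gene spans, while the counts are per Ensembl gene, whose overlap was not examined. The sources used here do not give the strand setting of the counting, and the split of reads between this pair is uncertain. PTGDR had 10, 16 and 23 counts in early luteal replicates 1, 2 and 3, against 8, 12 and 41 counts in the post-ovulatory replicates. This was 0.642, 2.16 and 1.53 CPM for early luteal and 0.594, 1.51 and 1.31 CPM in post-ovulatory libraries, with replicate 1 of each stage low. The means were 1.44 ± 0.763 CPM for early luteal and 1.14 ± 0.482 CPM for post-ovulatory tissue (SD, n = 3 each). The log2 fold change was 0.33 ± 0.75 (SE), with a 95% interval from -1.40 to 2.05 (edgeR, adjusted p = 0.928). Without early luteal replicate 2 it was -0.065.

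PTGIR, the prostacyclin receptor, lies on chromosome 6 (52522639 to 52527338) and had 18, 0 and 2 counts in early luteal replicates 1, 2 and 3, against 2, 2 and 2 counts in the post-ovulatory replicates. Of its 26 counts, 18 thus came from early luteal replicate 1, at 1.16 CPM (exact 95% Poisson interval 0.685 to 1.83). The other 5 libraries were at or under the floor of 3 counts, which equals 0.0957 to 0.405 CPM in them. Such intervals and floors account for counting error alone.

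PTGFR, the FP receptor through which prostaglandin F2 alpha contracts smooth muscle, lies on chromosome 6 (134727334 to 134777067). It stood at 9.64, 54.3 and 50.7 CPM in early luteal replicates 1, 2 and 3, against 52.8, 81.6 and 22.7 CPM in the post-ovulatory replicates. The highest library of each stage exceeded the lowest 5.64-fold in early luteal and 3.59-fold in post-ovulatory tissue. The means were 38.2 ± 24.8 CPM for early luteal and 52.4 ± 29.5 CPM for post-ovulatory tissue (SD, n = 3 each), a difference within the spread of either stage. The log2 fold change was -0.45 ± 0.65 (SE), with a 95% interval from -1.95 to 1.04 (edgeR, adjusted p = 0.879). The direction turned without early luteal replicate 1 (0.031) and without post-ovulatory replicate 2 (0.019). Its SD of log2 CPM within stages was 1.19, at percentile 85.5 of all tested genes.

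PTGER3, the EP3 receptor, lies on chromosome 6 (141958955 to 142160437), where 2 annotated long noncoding RNA genes overlap it. It had 2, 23 and 83 counts in early luteal replicates 1, 2 and 3, against 15, 9 and 109 counts in the post-ovulatory replicates. On the CPM scale this was 0.128, 3.11 and 5.50 in early luteal and 1.11, 1.13 and 3.48 in post-ovulatory libraries. Early luteal replicate 1 held the lowest and early luteal replicate 3 the highest level of all 6. The means were 2.91 ± 2.69 CPM for early luteal and 1.91 ± 1.36 CPM for post-ovulatory tissue (SD, n = 3 each). The log2 fold change was 0.58 ± 1.08 (SE), with a 95% interval from -1.89 to 3.05 (edgeR, adjusted p = 0.910). Without early luteal replicate 3 it was -0.33, and by limma voom on all libraries -0.71. The SD of log2 CPM within stages was 1.78, at percentile 96.1 of all tested genes.

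PTGFR and PTGER3 were set beside the smooth muscle markers of each library. Early luteal replicate 1 was lowest of all libraries in PTGFR, in PTGER3 and in the summed smooth muscle markers, and MYH11, the smooth muscle myosin heavy chain, stood at 492 CPM there, against 1489 to 4754 CPM in the other 5 libraries. Early luteal replicate 3 was highest in PTGER3 and in the markers but not in PTGFR, which was highest in post-ovulatory replicate 2. Among post-ovulatory libraries, PTGER3 was highest in replicate 3 (3.48 CPM), where the summed markers were lowest (3079 CPM). It stood at 1.13 CPM in post-ovulatory replicate 2, where the markers were highest of that stage (6039 CPM). PTGFR had the same order as the markers among the post-ovulatory libraries. The part of muscle content in the receptor levels was not tested. Of the 10 smooth muscle genes, 8 had a higher and 2 a lower fitted level in early luteal tissue, with 0 called and a median log2 fold change of 0.58 (all tested genes, -0.026).

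**Figure D2:**
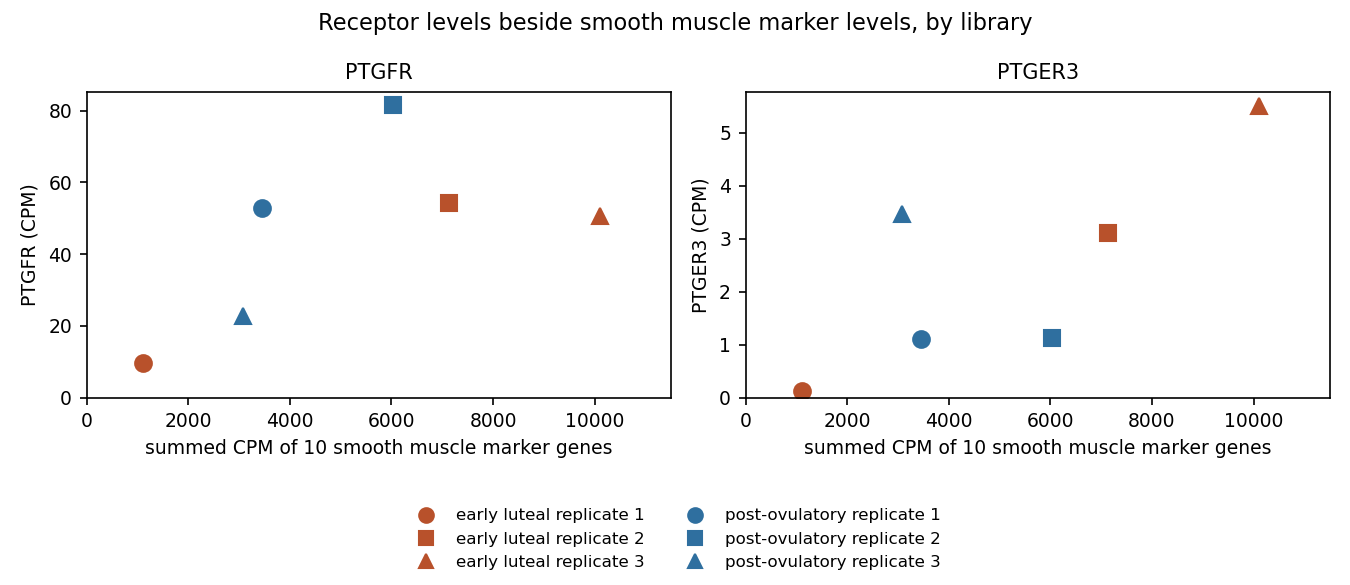
PTGFR (left) and PTGER3 (right) in CPM on the vertical axes against the summed CPM of 10 smooth muscle marker genes on the horizontal axes, with 1 point per library. Early luteal replicate 1 lies nearest the origin in both panels (1116 CPM of markers); early luteal replicate 3 lies farthest right (10104 CPM).

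PTGER1, the EP1 receptor, which raises calcium, lies on chromosome 2 (64796944 to 64800199). It had 6, 0 and 20 counts in early luteal replicates 1, 2 and 3, against 2, 6 and 13 counts in the post-ovulatory replicates. TBXA2R, the thromboxane receptor of platelets and contractile cells, lies on the same chromosome (75068413 to 75081305) and had 14, 0 and 5 counts in early luteal replicates 1, 2 and 3, against 9, 13 and 18 counts in the post-ovulatory replicates. PTGER1 was highest in early luteal replicate 3 at 1.33 CPM and TBXA2R in post-ovulatory replicate 2 at 1.64 CPM. PTGER1, PTGIR and TBXA2R each had 0 counts in early luteal replicate 2, the library that stood apart, whose floor of 3 counts equals 0.405 CPM. With the filter on low counts left off, all 3 could be tested and edgeR called none of them. The log2 fold changes there were 0.43 for PTGER1 (adjusted p = 0.947, edgeR), 1.54 for PTGIR (adjusted p = 0.774, edgeR) and -1.14 for TBXA2R (adjusted p = 0.780, edgeR), with unadjusted p-values of 0.766, 0.372 and 0.382 in edgeR.

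**Figure D3:**
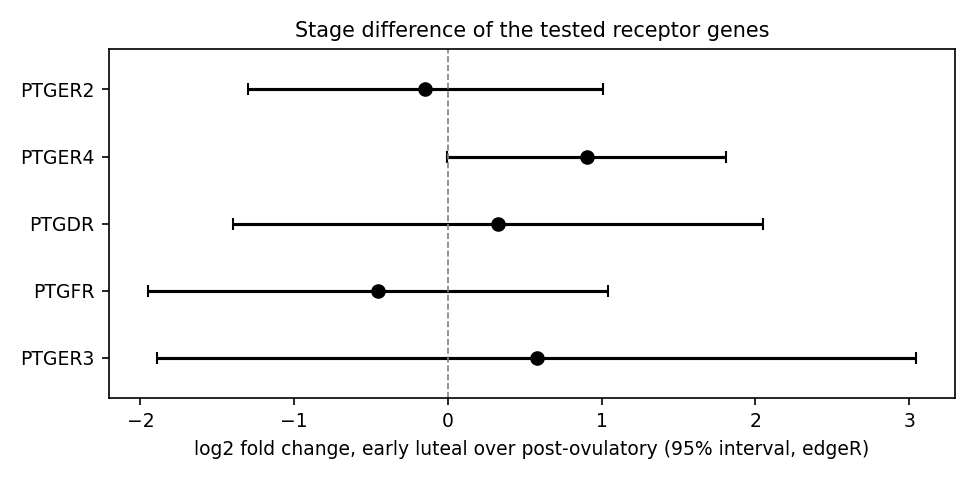
Log2 fold change of the 5 tested receptor genes, early luteal over post-ovulatory (horizontal axis), as the estimate with its 95% interval from edgeR's quasi-likelihood fit. Every interval holds 0; that of PTGER4 starts at -0.0030.

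Count ratios between 2 receptors of the same library do not depend on library scaling, and all 10 pairs of the 5 tested receptors were computed. The ratios were chosen after the levels had been seen and are a description with no test. The ratio of PTGER4 to PTGER2 counts was 11.9, 19.4 and 14.5 in early luteal replicates 1, 2 and 3, against 6.65, 7.77 and 8.87 in the post-ovulatory replicates. In this pair the stages did not overlap, which is 1 pair of 10. Among single genes 17.2% of all tested did not overlap in CPM, which is another measure. The share over ratios of other gene pairs was not computed. Reads split between PTGER2 and PTGDR are uncertain, as given above. The ratio of PTGER4 to PTGFR, a relaxing and a contracting receptor, was 4.45, 2.13 and 1.25 in early luteal and 0.758, 0.360 and 2.15 in post-ovulatory replicates. It overlapped between the stages because post-ovulatory replicate 3 lay above early luteal replicates 2 and 3.

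**Figure D4:**
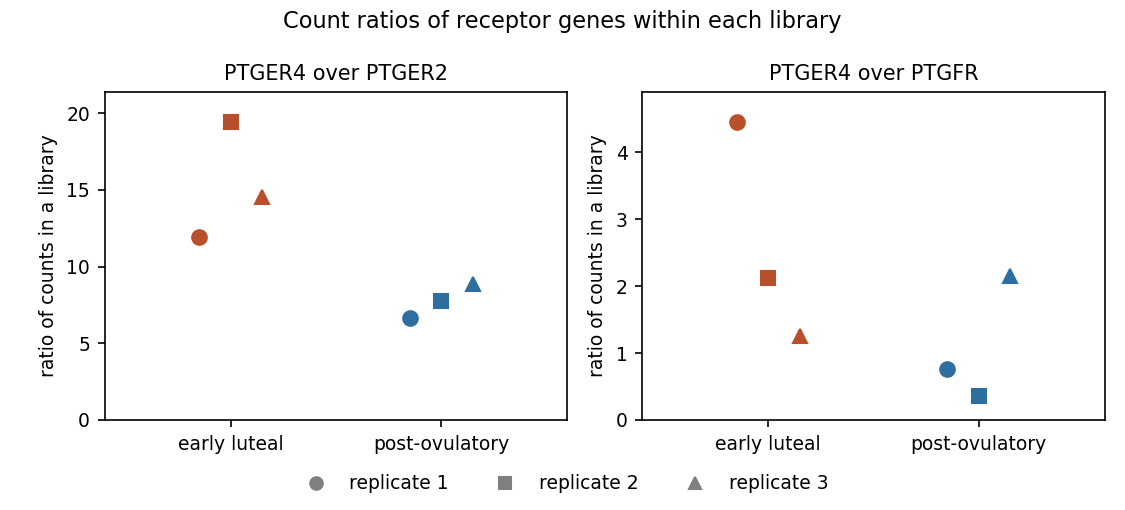
Ratio of PTGER4 counts to PTGER2 counts (left) and to PTGFR counts (right) within each library (vertical axes, linear from 0), for the early luteal and post-ovulatory stages. The 3 early luteal ratios to PTGER2 (11.9 to 19.4) lie above the 3 post-ovulatory ones (6.65 to 8.87), and the ratios to PTGFR overlap.

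Nearness to each receptor was taken as the root mean square difference of centred log2 CPM over the 6 libraries. Only the 12783 tested genes with a symbol were candidates. The nearest 2 were LGR4 (0.114) and CMBL (0.124) for PTGER4, and FGF7 (0.241) and SLC22A16 (0.244) for PTGFR. They were CFAP276 (0.051) and RPL27 (0.065) for PTGER2, AP5S1 (0.167) and BRD10 (0.201) for PTGDR, and HMGCLL1 (0.515) and SCRN1 (0.563) for PTGER3. No receptor was among the nearest genes of another. LGR4 averaged 142 CPM for early luteal and 71.2 CPM for post-ovulatory tissue, and FGF7 21.5 CPM for early luteal and 27.6 CPM for post-ovulatory tissue.

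Genes around the receptors were counted in 6 lists: prostanoid synthesis, transport and inactivation, G protein alpha subunits, the cyclic AMP branch, the calcium branch, receptor desensitisation, and other lipid mediator receptors. Of their 118 genes, 110 had a row by symbol and 97 were tested. None was called by edgeR; 5 had an unadjusted p under 0.05 (5.15%, against 7.11% of all genes tested), 4 of them higher (3.57% of all genes) and 1 lower (3.54% of all genes) in early luteal tissue. The stages did not overlap in 15 of the 97 genes (15.5%, against 17.2% of all genes tested), 7 of them higher and 8 lower in early luteal tissue. The edgeR and overlap shares lie below those of all genes, and the genes below are given as values. DESeq2 called 2 of the 97, SLCO2A1 and RGS2 (2.06%, against 0.971% of all genes tested). Without early luteal replicate 1, 13 of 98 genes of the lists had an unadjusted p under 0.05 (13.3%, against 11.5% of all genes in that fit). Without early luteal replicate 3, 9 of 97 did (9.28%, against 5.32%), and without post-ovulatory replicate 1, 3 of 98 did (3.06%, against 3.22%). The share was 7.14% against 8.33% without early luteal replicate 2. It was 5.10% against 6.26% without post-ovulatory replicate 2 and 4.08% against 4.98% without post-ovulatory replicate 3. Of the remaining alternatives described below, only limma voom with sample quality weights gave the lists a higher share (14.4%, against 14.2%).

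**Figure D5:**
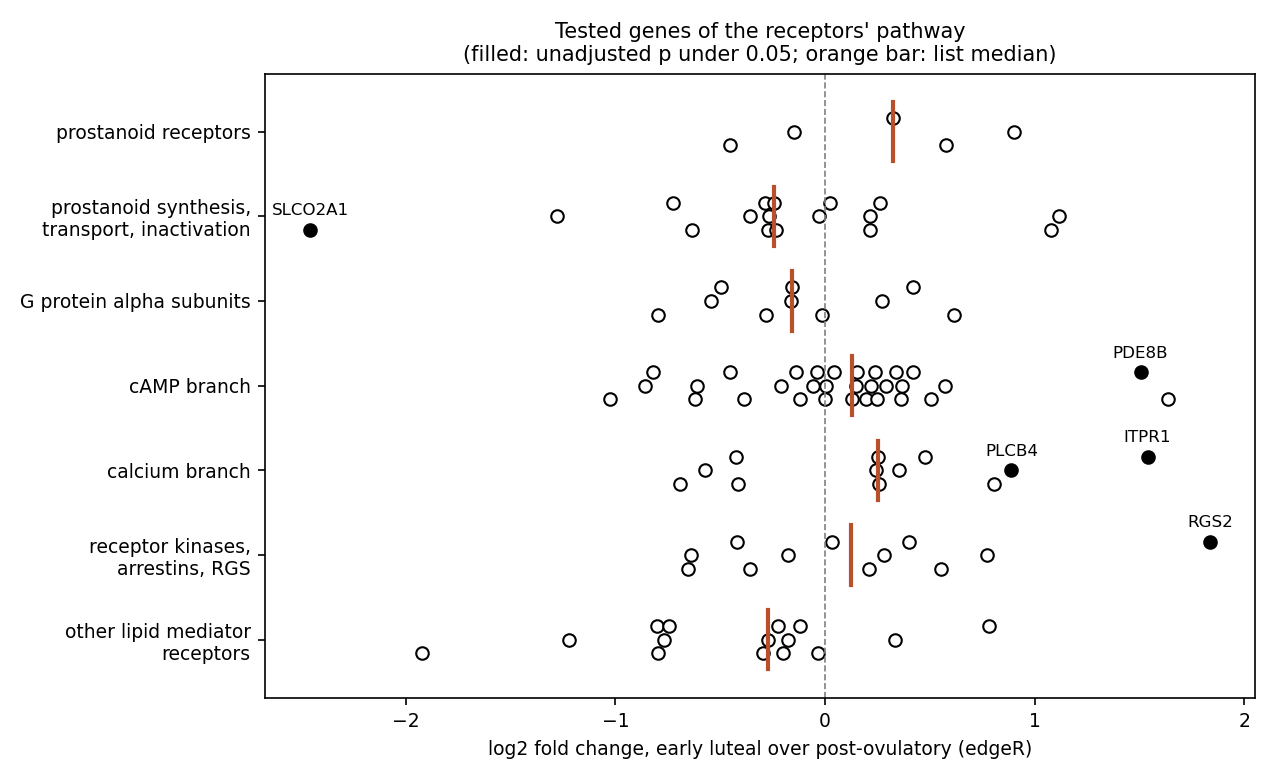
Log2 fold change, early luteal over post-ovulatory (horizontal axis, edgeR), of every tested gene of the receptor list and of 6 lists of its pathway (rows), with list medians as orange bars. The 5 filled and named points had an unadjusted p under 0.05; SLCO2A1 is the one below 0.

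On the supply side, 17 genes of prostanoid synthesis, transport and inactivation were tested, 6 with a higher and 11 with a lower fitted level in early luteal tissue (median log2 fold change -0.24). SLCO2A1, the transporter that takes prostaglandins up from the extracellular space, stood at 4.24, 1.49 and 3.52 CPM in early luteal replicates 1, 2 and 3, against 9.95, 34.3 and 7.46 CPM in the post-ovulatory replicates. All 3 early luteal libraries lay below the lowest post-ovulatory one. The fitted level was 5.48-fold lower (log2 fold change -2.46 ± 0.71, SE; edgeR, unadjusted p = 0.00825, adjusted p = 0.647; DESeq2, adjusted p = 0.0359). Without post-ovulatory replicate 2 the log2 fold change was -1.50. Of 9 endothelial genes tested, 2 had a higher and 7 a lower fitted level in early luteal tissue (median log2 fold change -0.57, edgeR). PLVAP and FLT1 were lower without overlap, at means of 17.7 and 6.52 CPM for early luteal and 51.0 and 19.7 CPM for post-ovulatory tissue. EMCN was higher without overlap, at a mean of 306 CPM for early luteal and 210.2 CPM for post-ovulatory tissue, and it made up the largest share of the sum of this list. Over the 9 genes the summed level overlapped between the stages, at 408 to 570 CPM for early luteal and 373 to 602 CPM in post-ovulatory libraries, highest in post-ovulatory replicate 2. The part of endothelial content in the SLCO2A1 level was not tested.

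HPGD, the dehydrogenase that inactivates prostaglandins, stood at 9.57, 14.9 and 2.85 CPM for early luteal and 3.94, 5.92 and 2.77 CPM in post-ovulatory replicates 1, 2 and 3, and overlapped (edgeR, adjusted p = 0.736). PTGES2, a prostaglandin E synthase, stood at 10.1, 1.76 and 11.5 CPM for early luteal and 20.6, 19.8 and 16.8 CPM in post-ovulatory replicates, without overlap (adjusted p = 0.692, edgeR). PTGES3, a cochaperone and cytosolic prostaglandin E synthase, averaged 387 ± 87.3 CPM for early luteal and 497 ± 213 CPM for post-ovulatory tissue. PTGIS, the prostacyclin synthase, averaged 53.5 ± 35.9 CPM for early luteal and 88.3 ± 36.6 CPM for post-ovulatory tissue (SD, n = 3 each). PTGIR, the receptor gene for its product, was at or under the floor in 5 of the 6 libraries.

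Among G protein alpha subunits 10 genes were tested, 3 with a higher and 7 with a lower fitted level in early luteal tissue (median log2 fold change -0.16). GNAS and GNAO1 had no row by symbol, so their levels were not examined. GNAI1, an inhibitory subunit, averaged 76.6 ± 29.1 CPM for early luteal and 57.1 ± 6.73 CPM for post-ovulatory tissue. GNAI2 averaged 295 ± 28.8 CPM for early luteal and 358 ± 24.1 CPM for post-ovulatory tissue, without overlap. GNAI3 averaged 96.0 ± 20.8 CPM for early luteal and 106.9 ± 19.0 CPM for post-ovulatory tissue. GNA11 and GNA14, which activate phospholipase C, averaged 21.6 ± 11.2 and 8.56 ± 2.36 CPM for early luteal and 31.6 ± 3.11 and 5.58 ± 2.40 CPM for post-ovulatory tissue (SD, n = 3 each). The lowest adjusted p of the list was 0.778 (edgeR).

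In the cyclic AMP branch 31 genes were tested, 18 with a higher and 13 with a lower fitted level (median log2 fold change 0.13). PDE8B, a phosphodiesterase that breaks cyclic AMP down, stood at 10.9, 35.5 and 21.3 CPM in early luteal replicates 1, 2 and 3, against 6.31, 7.94 and 9.47 CPM in the post-ovulatory replicates. The stages did not overlap, with a log2 fold change of 1.51 ± 0.49 (SE; edgeR, unadjusted p = 0.0144, adjusted p = 0.664). ADCY8, a calcium-stimulated adenylyl cyclase, stood at 1.54, 8.51 and 7.76 CPM for early luteal and 1.78, 2.39 and 1.56 CPM in post-ovulatory replicates, with early luteal replicate 1 as low as the post-ovulatory libraries. ADCY2, another cyclase, averaged 2.06 ± 0.383 CPM for early luteal and 4.25 ± 1.78 CPM for post-ovulatory tissue, without overlap. The protein kinase A subunits PRKACA and PRKAR1A averaged 64.6 ± 29.3 and 320 ± 20.3 CPM for early luteal and 99.6 ± 20.1 and 319 ± 74.8 CPM for post-ovulatory tissue (SD, n = 3 each).

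In the calcium branch 12 genes were tested, 8 with a higher and 4 with a lower fitted level (median log2 fold change 0.25). ITPR1, an inositol trisphosphate receptor that releases stored calcium, stood at 73.0, 139 and 96.0 CPM in early luteal replicates 1, 2 and 3, against 20.9, 58.0 and 27.6 CPM in the post-ovulatory replicates. All 3 early luteal libraries lay above the highest post-ovulatory one (log2 fold change 1.54 ± 0.43, SE; edgeR, unadjusted p = 0.00692, adjusted p = 0.632; DESeq2, adjusted p = 0.0775). PLCB4, a phospholipase C of this branch, stood at 100.2, 307 and 214 CPM for early luteal and 112, 107 and 116 CPM in post-ovulatory replicates, so early luteal replicate 1 lay below all 3 of the other stage (edgeR, unadjusted p = 0.0499, adjusted p = 0.685). ITPR3 averaged 73.2 ± 21.9 CPM for early luteal and 109 ± 21.1 CPM for post-ovulatory tissue. PLCB3, another phospholipase C, stood at 39.1, 41.8 and 44.6 CPM for early luteal and 54.4, 58.1 and 55.8 CPM in post-ovulatory replicates, without overlap (edgeR, adjusted p = 0.716). The myosin light chain kinase MYLK averaged 1998 ± 1210.4 CPM for early luteal and 1141 ± 310 CPM for post-ovulatory tissue (SD, n = 3 each). MYLK was lowest in early luteal replicate 1 (607 CPM), where the smooth muscle markers were lowest too.

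Of the genes that end receptor signals, 12 were tested, 7 with a higher and 5 with a lower fitted level (median log2 fold change 0.12). RGS2, which shortens signals through Gq, stood at 201, 276 and 296 CPM in early luteal replicates 1, 2 and 3, against 55.7, 129 and 32.3 CPM in the post-ovulatory replicates. The stages did not overlap, and the fitted level was 3.57-fold higher (log2 fold change 1.84 ± 0.49, SE; edgeR, unadjusted p = 0.00514, adjusted p = 0.631; DESeq2, adjusted p = 0.0293). Without post-ovulatory replicate 2 the log2 fold change was 2.54. Summed immediate early genes, a class sensitive to how tissue is handled, were 493, 1395 and 1772 CPM for early luteal and 677, 980 and 371 CPM in post-ovulatory replicates. Within each stage the libraries had the same order in this sum as in RGS2, and across the stages the sum overlapped. The same holds for the summed smooth muscle markers, at 1116, 7136 and 10104 CPM for early luteal and 3449, 6039 and 3079 CPM in post-ovulatory replicates. The part of tissue handling or of muscle content in the RGS2 level was not tested. RGS1 averaged 45.5 ± 5.75 CPM for early luteal and 31.0 ± 12.6 CPM for post-ovulatory tissue, without overlap. The receptor kinase GRK2 averaged 21.8 ± 12.2 CPM for early luteal and 34.0 ± 2.33 CPM for post-ovulatory tissue, also without overlap. GRK3, another receptor kinase, averaged 99.2 ± 20.9 CPM for early luteal and 112 ± 47.8 CPM for post-ovulatory tissue. The arrestin ARRB1 averaged 33.7 ± 32.4 CPM for early luteal and 43.5 ± 5.23 CPM for post-ovulatory tissue (SD, n = 3 each). GRK2 and ARRB1 were lowest in early luteal replicate 2, at 7.70 and 7.43 CPM.

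Receptors of other lipid mediators served as the nearest class for comparison, with 21 of 23 genes in the table and 15 tested. Of these, 2 had a higher and 13 a lower fitted level in early luteal tissue (median log2 fold change -0.27), against 3 higher and 2 lower among the 5 tested prostanoid receptors (median 0.33). Over all tested genes 48.2% had a higher and 51.8% a lower fitted level. Whether the classes differ was not tested. Several of the lower genes were lowest in early luteal replicate 2, the library that stood apart. LPAR2, S1PR1 and PPARD stood at 1.35, 5.68 and 13.9 CPM there, and their other early luteal values overlapped the post-ovulatory ones. LPAR3, PTAFR, CYSLTR1 and CYSLTR2 were lower in the fit but not lowest in that library. LPAR6, a receptor for lysophosphatidic acid, stood at 37.6, 65.7 and 36.5 CPM for early luteal and 22.1, 35.02 and 24.0 CPM in post-ovulatory replicates, without overlap (edgeR, adjusted p = 0.685). LPAR3 averaged 68.7 ± 29.4 CPM for early luteal and 160 ± 150 CPM for post-ovulatory tissue. The sphingosine phosphate receptor S1PR2 averaged 9.34 ± 3.82 CPM for early luteal and 16.4 ± 3.12 CPM for post-ovulatory tissue, without overlap. S1PR1 averaged 15.5 ± 9.38 and the nuclear receptor PPARD 24.2 ± 9.03 CPM in early luteal, against 18.8 ± 2.10 and 27.8 ± 2.61 CPM for post-ovulatory tissue (SD, n = 3 each). PTGDR2, the second receptor for prostaglandin D2, belongs to another receptor family and was counted among the 13 lower genes here (log2 fold change -0.77, edgeR). It had 24, 3 and 7 counts in early luteal and 26, 13 and 22 counts in post-ovulatory replicates.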

How the data were processed

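Messenger RNA of pig ampulla was read as paired reads from stranded libraries, per the labels' protocols. The submitters' processing notes name STAR, Trim Galore, FastQC 0.11.4 and the build Sscrofa11.1; the counter, the annotation release and the use of strand in counting were not named in the sources used here. The authors deposited raw counts per Ensembl gene, with no normalization. The table header joins its first 2 words, so columns were taken by position; one word, EL3, lacks a letter of the label it stands for. Symbols came from a table of identifiers. Counts were scaled by TMM, filtered by filterByExpr (minimum count 10) and tested with edgeR 4.0.16 (R 4.3.3) by the quasi-likelihood test, two-sided, early luteal over post-ovulatory, with Benjamini-Hochberg adjustment over 17920 genes and a threshold of 0.05. The SE was derived from the fold change and its F statistic. Log2 CPM used a prior count of 2. Library totals of 7370723 to 30954222 set the counting precision.

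Alternatives were other scalings and filters, DESeq2 1.42.0, limma 3.58.1 voom with and without sample quality weights, the replicate number as a block, and each library left out. The scripts were tested on simulated data. Named genes were the 8 receptors, the 2 tested genes with a symbol nearest to each, and genes of each list. From each list these were the 3 with the lowest p and the 2 others with the highest mean CPM. The members and lists were chosen with earlier results of these data known. No sequence and no transcript length was used here. The calcium list was shortened after its values had been seen, because some items are not reported here.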

Additional observations from a re-analysis of the deposited data

How the results depend on the processing

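No receptor gene was called under any of the 15 alternatives run. PTGER4 kept a positive log2 fold change in all 15 (0.43 to 1.20; adjusted p 0.344 to 0.985), with an unadjusted p between 0.0134 and 0.178. The other receptors changed direction. PTGER2 was 0.025 without early luteal replicate 1. PTGER3 was -0.71 with limma voom, -0.46 with quality weights, -0.0076 with the replicate block and -0.33 without early luteal replicate 3. PTGFR was 0.031 without early luteal replicate 1 and 0.019 without post-ovulatory replicate 2. PTGDR was -0.029 with quality weights and -0.065 without early luteal replicate 2. The causes were not tested. Leaving out 1 library at a time gave -0.36 to 0.025 for PTGER2, -0.33 to 1.38 for PTGER3, 0.43 to 1.20 for PTGER4, -0.80 to 0.031 for PTGFR and -0.065 to 0.71 for PTGDR. Over all genes edgeR called 0 (1275 at an unadjusted p under 0.05), 8 with no filter, DESeq2 174 and voom with quality weights 9; limma voom called 0 (1277). DESeq2 called 1 gene of the prostanoid supply list and 1 of the desensitisation list, where edgeR called 0. Whether equal replicate numbers mark a pairing is not given in the labels. Deviations of same-numbered libraries from their stage means correlated at 0.052, -0.082 and 0.13 across 17920 genes. Those of differently numbered libraries correlated at -0.16 to 0.063. With 3 libraries per stage these values cannot decide whether the numbers pair. With the replicate block edgeR called 0 genes (1043 at an unadjusted p under 0.05). PTGER1, PTGIR and TBXA2R fell under the filter in the reported edgeR fit; PTGER1 and TBXA2R were tested in 5 alternatives each and PTGIR in 1, with 0 called (unadjusted p 0.309 to 0.965).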

Other observations

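Early luteal replicate 1, which held 18 of the 26 PTGIR counts, also had the highest level of KIT, a receptor of mast and pacemaker cells, at 176 CPM. KIT stood at 55.7 and 67.8 CPM in early luteal replicates 2 and 3 and at 30.3, 29.2 and 32.2 CPM in the post-ovulatory replicates. MS4A2, a mast cell marker, stood at 17.9, 8.51 and 5.70 CPM in early luteal and 12.8, 24.1 and 9.92 CPM in post-ovulatory replicates. Of the 8 mast cell and platelet genes with a row, the platelet gene PPBP was at or under 0.032 CPM in every library. ITGA2B and GP9 of the same list ranged from 0.676 to 5.78 CPM and from 1.89 to 10.2 CPM. ITGA2B and FCER1A, also of the list, were highest in early luteal replicate 1, as PTGIR was. FCER1A had 46, 0 and 1 counts in early luteal and 8, 5 and 31 counts in post-ovulatory replicates. GP9 was highest in post-ovulatory replicate 1 and GATA2 in post-ovulatory replicate 2. The summed level of the 8 genes was 229, 78.5 and 99.0 CPM in early luteal and 72.4, 86.8 and 65.9 CPM in post-ovulatory replicates, most of it KIT in the early luteal libraries. Without KIT the sum of the other 7 was 52.4, 22.8 and 31.1 CPM in early luteal and 42.1, 57.6 and 33.6 CPM in post-ovulatory replicates, which overlapped. HDC, the histidine decarboxylase of mast cells, stood at 0.45, 0 and 0.13 CPM in early luteal and 4.90, 6.05 and 0.38 CPM in post-ovulatory replicates. The part of these cells in the PTGIR level was not tested.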
